A study of Homo sapiens with 6 samples.

Results

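Protein tyrosine kinases of the Src, Abl and focal adhesion kinase (FAK) families, together with the Src inhibitor CSK, were followed at the RNA level in an RNA immunoprecipitation experiment on Merkel cell carcinoma (MCC) cells. The members were chosen by name and were *SRC*, *YES1*, *FYN*, *LYN*, *LCK*, *ABL1*, *ABL2*, *PTK2* (encoding FAK), *PTK2B* (encoding PYK2) and *CSK*, 10 of the 60655 genes in the count table. Each name matched 1 gene. They were picked with the IGF2BP3 IP against IgG IP comparison in view, so their fold changes and calls in it are a description, set beside the share of all tested genes, and not evidence of a difference.

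Src family kinases sit at the inner face of the plasma membrane and relay signals from integrins and growth factor receptors. FAK recruits them to focal adhesions, where they phosphorylate adaptors that govern cell spreading and movement, and CSK holds them inactive by phosphorylating a tyrosine in their tail. Abl kinases bind actin and remodel the cytoskeleton. IGF2BP3 is an oncofetal protein that binds RNA and influences the stability and translation of the transcripts it holds.

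RNA immunoprecipitation sequencing (RIP-seq) was performed in WaGa cells, an MCC cell line that carries Merkel cell polyomavirus, to find RNAs held by IGF2BP3. WaGa cells of wild-type genotype, given no treatment, supplied both groups, and the groups differed in the antibody alone, at 5 μg in each. IGF2BP3 antibody was used in 3 libraries (IGF2BP3 IP) and IgG, the negative control, in the other 3 (IgG IP), with 150 bp reads, and the series describes the replicates as independent. All 6 libraries are immunoprecipitates of 1 cell line, so a level here is that of RNA brought down and not of total RNA.

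Between 9758759 and 14886414 reads were counted per library, and 14507 genes passed the filter on low counts. Replicate 1 of both groups stood apart. Pairs of libraries from 1 group that held replicate 1 differed by a chi-square of 18.2 to 22.0 per degree of freedom, and replicates 2 and 3 by 2.19 to 3.25, so no library was a copy of another. All 10 MCC markers listed were tested, with *KRT20* at 548 TPM (a level scaled for transcript length and library size) in the IgG IP. The 9 leukocyte markers had 0 to 4 counts in any library, and *PTPRC*, *CD3E* and *CD3D* were among those with 0 in all. Of 6 fibroblast and endothelial markers only *DCN* was tested, at 479 to 762 counts per library, and the others had 0 to 8 counts.

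The members differ in base composition as well as in count. *SRC*, *YES1* and *FYN* encode the same 49 amino acids in a row within the kinase domain, a stretch that holds the activation loop, but spell them with different codons. These stretches are shown because the fold changes of the members tended to rise with GC content, with exceptions, and they were chosen after that had been seen. Capitals mark each G or C at the third base of a codon, and the sequences were read from GENCODE version 44 transcripts on GRCh38 in the direction of transcription.
SRC: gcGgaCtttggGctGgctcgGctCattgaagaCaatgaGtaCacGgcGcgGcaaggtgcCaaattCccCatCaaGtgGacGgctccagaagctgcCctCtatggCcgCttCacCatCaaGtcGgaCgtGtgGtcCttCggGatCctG
YES1: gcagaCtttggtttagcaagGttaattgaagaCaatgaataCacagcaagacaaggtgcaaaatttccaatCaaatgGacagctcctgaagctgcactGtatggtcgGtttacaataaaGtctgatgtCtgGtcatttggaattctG
FYN: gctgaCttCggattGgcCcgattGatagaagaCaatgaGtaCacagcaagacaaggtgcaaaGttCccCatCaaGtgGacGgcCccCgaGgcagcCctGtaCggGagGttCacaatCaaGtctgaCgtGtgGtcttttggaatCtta

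The third base was G or C in 36 of the 49 codons of *SRC*, in 30 of *FYN* and in 12 of *YES1*. Of the 147 bases, *FYN* shared 116 and *YES1* 114 with *SRC*. The stretch lies in exons 12 and 13 of *SRC* (plus strand, chr20:37402534-37402840), in exons 10 and 11 of *YES1* (minus strand, chr18:732874-736862) and in exons 12 and 13 of *FYN* (minus strand, chr6:111674539-111694429), with an intron inside each of these spans. The same was done for the Abl pair, which share 48 amino acids in a row in the kinase domain.
ABL1: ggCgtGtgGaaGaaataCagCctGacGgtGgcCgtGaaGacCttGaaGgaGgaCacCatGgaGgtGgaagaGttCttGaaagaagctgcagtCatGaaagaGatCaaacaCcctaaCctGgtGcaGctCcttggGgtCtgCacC
ABL2: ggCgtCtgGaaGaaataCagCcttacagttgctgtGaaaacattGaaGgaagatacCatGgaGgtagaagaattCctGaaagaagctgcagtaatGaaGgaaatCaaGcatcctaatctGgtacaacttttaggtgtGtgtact

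Here the third base was G or C in 38 of the 48 codons of *ABL1* and in 20 of *ABL2*, and 117 of 144 bases were identical. The stretch spans exons 4 to 6 of *ABL1* (plus strand, chr9:130862988-130872870) and exons 5 to 7 of *ABL2* (minus strand, chr1:179118754-179121642). In these families the member with more G and C at the third base, *SRC* or *ABL1*, was the one with the larger IGF2BP3 IP over IgG IP fold change below. The FAK pair did not follow this order, since over the whole coding sequence *PTK2B* had 76.2% G or C at the third base and *PTK2* 46.2%, with log2 fold changes of -0.06 and 0.00.

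In the fit of condition alone, 0 of the 8 tested kinases were enriched in the IGF2BP3 IP, where enriched means a fold change of at least 1.5 and an adjusted p under 0.05 over all tested genes in the quasi-likelihood test of edgeR. Among all tested genes 1.16% were enriched. *LYN* and *LCK* were not tested. At an unadjusted p under 0.05 and 1.5-fold, 2 members passed, *SRC* and *ABL1*, as did 3.85% of all tested genes. DESeq2, the tool named in the study's methods, called *SRC* alone among the members and 2.22% of all genes it tested. With limma-voom 0 members and 1.06% of genes were called. When edgeR was fitted with a replicate block, *SRC* and *ABL1* were called, beside 3.56% of all genes. On counts simulated with gene-wise dispersions each fit made more false calls than its nominal share, the blocked fit most of all. With trended dispersions each fit except the blocked one did so. Those counts held no replicate effect, so they cannot show how often the block's calls on these libraries are false. Fitted log2 fold changes ran from -0.18 for *YES1* to 1.04 for *SRC*, with a median of 0.06 over the 8 members and -0.01 over all tested genes. Values were positive for 4 members and negative for 4.

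*SRC*, the founding member of its family, was at 6.94, 9.38 and 12.4 CPM (counts scaled to the library total, normalized with TMM) in IgG IP replicates 1 to 3. It was at 17.3, 23.4 and 18.8 CPM in IGF2BP3 IP replicates 1 to 3, from 206, 310 and 231 counts. Every IGF2BP3 IP library was above every IgG IP library, as was the case for 12% of tested genes. The fitted log2 fold change was 1.04 ± 0.21 (SE, n = 3 libraries per group), a fold of 2.05. Within replicate numbers the differences were 1.32, 1.32 and 0.60. Numbers 2 and 3 were not told apart in a check of the pairing, which limits all such differences here. *SRC* had the 104th largest fold change of the 14507 tested genes.

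*YES1*, a close homologue of *SRC* expressed in most tissues, lay the other way. It was at 185, 200 and 194 CPM in the IgG IP libraries and at 161, 184 and 166 CPM in those of the IGF2BP3 IP. All 3 IGF2BP3 IP libraries were below all 3 IgG IP libraries, as in 8.69% of tested genes, but the gap was small, with a log2 fold change of -0.18 ± 0.08 (SE, n = 3). The exons of 2 antisense lncRNAs overlap those of *YES1*. They held 0 to 7 and 11 to 22 counts per library beside at least 1707 for *YES1*, and the pseudogene *YES1P1* held 0 to 3.

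*FYN*, which also acts in neurons and T cells, was at 199, 224 and 244 CPM in the IgG IP and 218, 250 and 255 CPM in the IGF2BP3 IP. The groups overlapped, and the log2 fold change was 0.12 ± 0.10 (SE, n = 3). Differences within replicate numbers were 0.07 to 0.16 on the log2 scale.

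*LYN* and *LCK* serve mainly in B cells and T cells. The IgG IP libraries held 0, 6 and 0 counts of *LYN*, and the IGF2BP3 IP libraries 1, 0 and 0. *LCK* had 6, 1 and 2 counts against 1, 0 and 2. A count of 0 allows up to 0.201 to 0.325 CPM, depending on the library (3 counts, covering counting error only), so no fold is given for either. In bulk libraries such as these, fewer cells with a transcript and less of it per cell cannot be told apart.

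**Figure D1:**
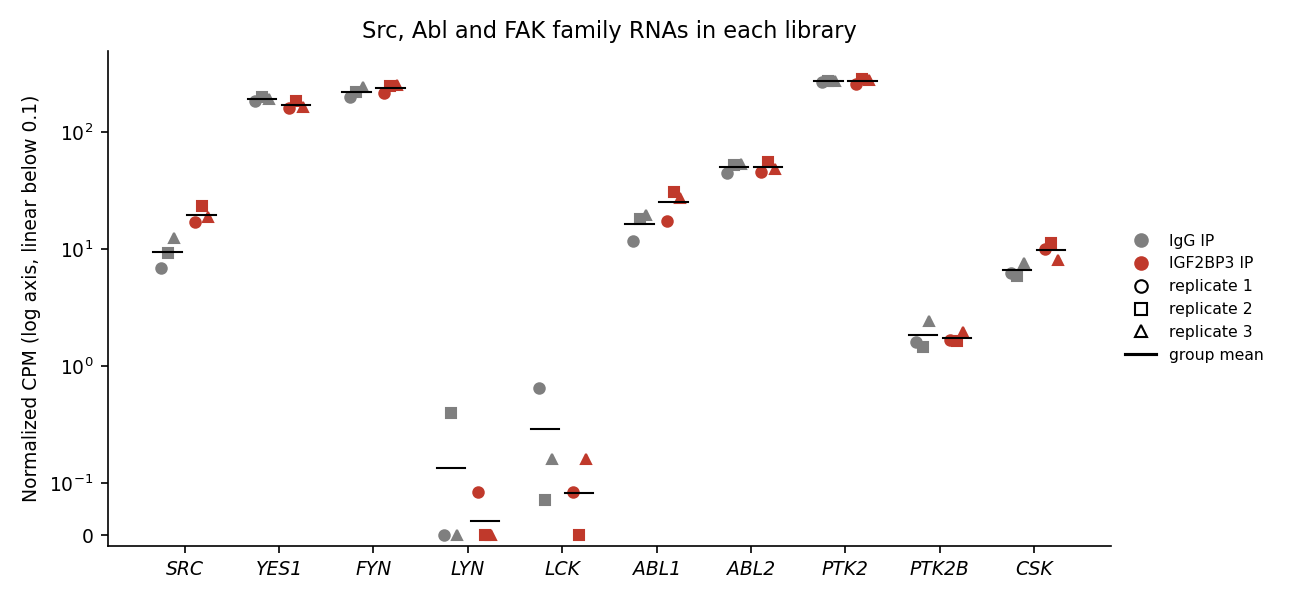
TMM-normalized CPM (log axis, linear below 0.1) of the 10 kinase RNAs in 3 IgG IP (grey) and 3 IGF2BP3 IP (red) libraries, with symbols for replicate numbers and lines for group means. *SRC* and *CSK* have all red points above all grey ones, *YES1* has all of them below, and *LYN* and *LCK* lie near 0.

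*ABL1*, a kinase that moves between nucleus and cytoplasm, was at 11.7, 18.4 and 19.5 CPM in the IgG IP. Its IGF2BP3 IP libraries held 17.5, 31.0 and 27.3 CPM. The groups overlapped because replicate 1 was the lowest library of both. Within replicate numbers *ABL1* was higher in the IGF2BP3 IP by 0.58, 0.75 and 0.48 on the log2 scale. The fitted log2 fold change was 0.60 ± 0.24 (SE, n = 3). A gene annotated on the same strand over *ABL1* exons, ENSG00000288570, had 0 counts in all libraries.

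Its paralogue *ABL2* binds actin through an extended carboxy-terminal region. It was at 45.2, 53.2 and 53.5 CPM in the IgG IP and 46.0, 56.1 and 48.5 CPM in the IGF2BP3 IP. The log2 fold change was -0.01 ± 0.11 (SE, n = 3), with overlapping groups.

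*PTK2*, encoding FAK, was at 270, 278 and 278 CPM with IgG and 260, 286 and 278 CPM with IGF2BP3 antibody. Its log2 fold change was 0.00 ± 0.07 (SE, n = 3), the smallest error of the members. *PTK2B* encodes PYK2, the calcium-responsive relative of FAK, and was scarce, with 15 to 30 counts per library. Its levels were 1.63, 1.47 and 2.42 CPM against 1.68, 1.66 and 1.95 CPM, and the log2 fold change of -0.06 ± 0.30 (SE, n = 3) had the widest error. Both of these RNAs overlapped between groups.

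*CSK*, the inhibitory kinase, was at 6.29, 5.96 and 7.66 CPM in the IgG IP and 10.1, 11.4 and 8.05 CPM in the IGF2BP3 IP. The groups did not overlap, though replicate 3 of the IGF2BP3 IP was barely above the highest IgG IP library. Differences within replicate numbers were 0.68, 0.94 and 0.07, and the fitted log2 fold change was 0.57 ± 0.19 (SE, n = 3), just under 1.5-fold. *SRC* and *ABL1* were thus the 2 members at or past 1.5-fold, a size that 5.3% of all tested genes reached.

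**Figure D2:**
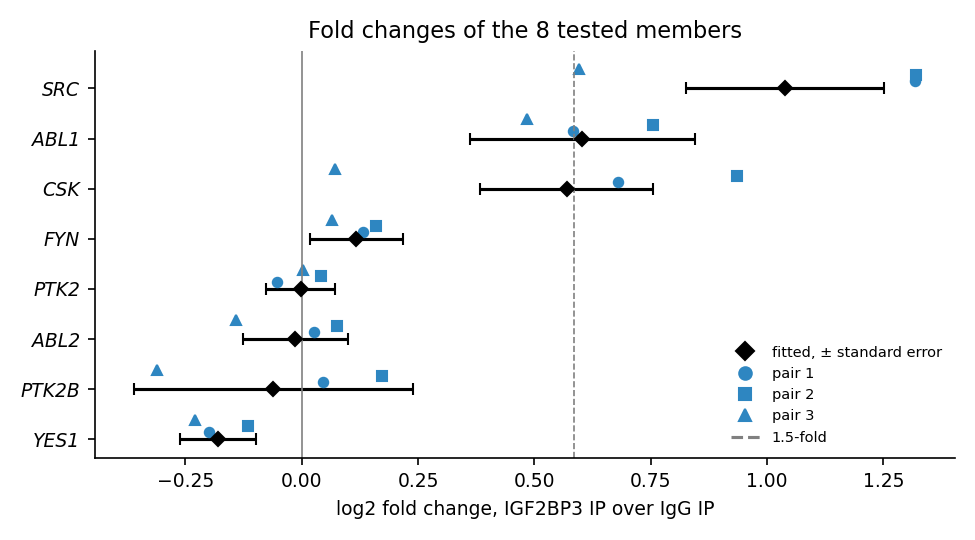
Fitted log2 fold changes (IGF2BP3 IP over IgG IP) of the 8 tested kinases, with standard errors (black), and the differences within replicate numbers (blue). *SRC*, *ABL1*, *CSK* and *FYN* have all 3 pairs above 0 and *YES1* has all 3 below.

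Per length, the kinase RNAs spread over a wide range, and their order was read from TPM. Mean IgG IP levels were 144 TPM for *FYN*, 87.1 for *PTK2* and 47.3 for *YES1*. No IgG IP library ranges overlapped between these neighbours, and in 6 of 6 libraries *FYN* was above *PTK2* and *PTK2* above *YES1*. A wide step followed, to 6.32 TPM for *ABL2*. From there to *PTK2B* the ranges of neighbours overlapped, with *ABL1* at 4.46, *CSK* at 3.80, *SRC* at 2.72 and *PTK2B* at 1.75 TPM. *LYN* at 0.19 and *LCK* at 0.127 TPM came last, with overlapping ranges. The counts per kilobase of the canonical transcript gave the same order for the first 8.

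*SRC* therefore had a low level and the largest fold change. On the TPM scale it ran from 1.30 to 4.23 in the IgG IP and from 4.06 to 7.52 in the IGF2BP3 IP, so the groups overlapped there. *PTK2* differed most between the scales. It was at 87.1 ± 14.7 TPM (SD, n = 3) in the IgG IP and 111 ± 19.5 TPM in the IGF2BP3 IP, a difference of 0.35 on the log2(TPM + 1) scale, where the median of all tested genes was itself shifted by 0.11.

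GC content of the canonical transcript set the members apart. It was 63.4% in *CSK* and 59.3% in both *SRC* and *ABL1*, all within the highest of 5 equal groups of tested genes by GC content. *PTK2B* at 56.6% was in group 4. *FYN* at 48.4%, *ABL2* at 45.5% and *PTK2* at 45.1% were in group 3, and *YES1* at 37.4% was in the lowest. At the third base of codons over the whole coding sequence, *SRC* had 84.3% G or C and *YES1* 29.3%.

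Fold changes of all tested genes moved with GC content too. The median log2 fold change rose from -0.12 in the lowest of the 5 groups through -0.06, 0.00 and 0.08 to 0.18 in the highest, and the enriched share from 0.173% to 2.35%. Spearman's rho between fold change and GC content was 0.41 across 14479 genes and 0.76 across the 8 members, as a description of points that share 6 libraries. *PTK2B* was the exception among the GC-rich members, with a negative log2 fold change and few counts. With each library's trend on GC removed, the log2 fold change was 0.86 for *SRC*, 0.42 for *ABL1*, 0.35 for *CSK* and -0.08 for *YES1*, and none was enriched beside 0.559% of all tested genes. With the replicate block added to this correction, *SRC* alone among the members was enriched (0.87), beside 1.88% of all tested genes. What part GC content had in the differences was not tested beyond these fits.

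**Figure D3:**
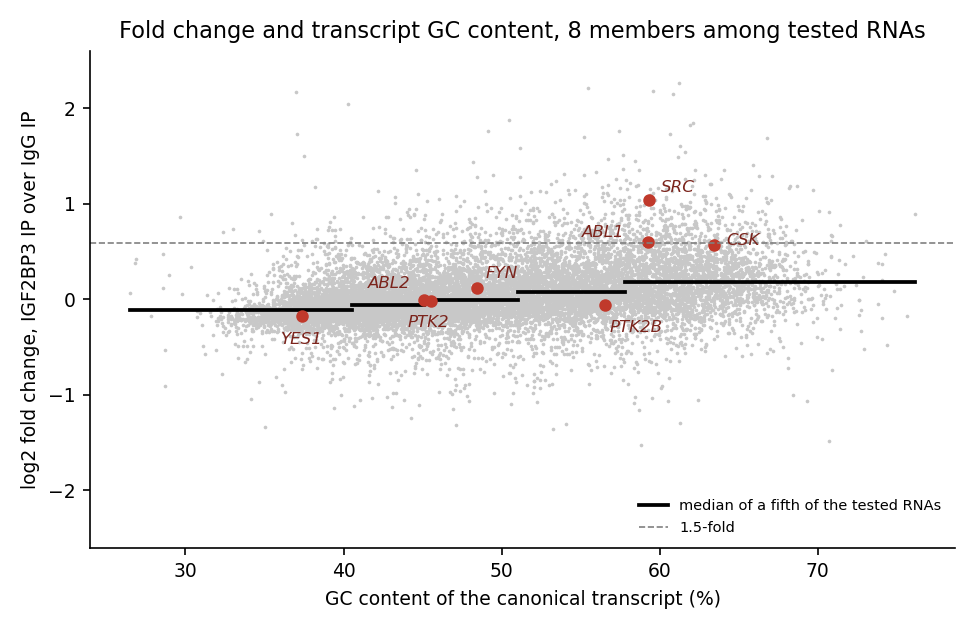
Log2 fold change (IGF2BP3 IP over IgG IP) against GC content of the canonical transcript for the tested genes (grey), with the 8 tested kinases in red and black lines for the medians of 5 equal groups by GC content. *SRC*, *ABL1* and *CSK* lie above the line of the GC-richest group and *YES1* near that of the poorest.

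Letters that IGF2BP proteins are known to prefer were counted on the transcript strand. CATA, CATC or CATT occurred 8.18 times per kilobase in *SRC* and 9.99 times in *YES1*, with a median of 10.8 over tested genes. GGAC, the core of the N6-methyladenosine consensus, occurred 6.68 times per kilobase in *SRC* and 2.61 times in *YES1*, with a median of 3.51. *CSK* at 6.93 and *PTK2B* at 7.85 held more GGAC than *SRC*. Spearman's rho with fold change was 0.30 for GGAC over tested genes and 0.43 over the 8 members. For CATA, CATC or CATT it was -0.15 and -0.57. Of the canonical transcripts, 99.6% held a CATA, CATC or CATT and 98.0% a GGAC, and a GGAC can share its last base with the first of a CAT. A match describes the letters alone.

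The profile of *SRC* over the 6 libraries was most like those of *TMEM108*, *ZNF142*, *GAREM2*, *ZNF425* and *FZR1*, with Pearson's r of log2 CPM between 0.996 and 0.999. At a looser limit, 240 of the 14507 tested genes had r above 0.95. The log2 fold changes of the genes named here were 0.33 to 0.80.

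Around the kinases, 96 genes of 6 pathway lists were counted, of which 72 were tested. The lists were chosen with earlier results of these data known, so their calls, p-values, shares and medians are a description. Of these 1 was enriched, a share of 1.39% beside 1.16% of all tested genes, and 0 were lower. For lower calls, 0 of the 72 passed 1.5-fold at an unadjusted p under 0.05, beside 0.407% of all tested genes, and DESeq2 and limma-voom called 0. The enriched one was *SHC1*, an adaptor that Src phosphorylates to link receptors to Ras. It was at 45.0 ± 2.33 CPM (SD, n = 3) in the IgG IP and 78.0 ± 9.19 CPM in the IGF2BP3 IP, a log2 fold change of 0.79 ± 0.11 (SE) with an adjusted p of 0.015 in edgeR. With the GC trend removed it remained enriched (0.64, adjusted p = 0.0313 in edgeR), and it was no longer called when IgG IP replicate 2 or 3 or IGF2BP3 IP replicate 2 or 3 was left out. Its log2 fold change in those fits was 0.81, 0.82, 0.74 and 0.72, and they called 19, 7, 0 and 23 genes in all, against 169 as reported.

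The median log2 fold change of the 72 genes was 0.17, against -0.01 for all tested genes, and all IGF2BP3 IP libraries were above all IgG IP libraries for 15 of them, or 20.8%, beside 12% of all tested genes. The 25 tested focal adhesion substrates and adaptors had a median of 0.33, and 23 were positive. Their median was 0.21 with the GC trend removed, against -0.03 for all tested genes in that fit. The median GC content of these 25 genes was 53.2%, against 47.7% for all tested genes. *PXN*, encoding paxillin, the scaffold that FAK and Src phosphorylate, had the largest value of that list, 1.16 ± 0.26 (SE), with an adjusted p of 0.0729 in edgeR and 14 to 56 counts. Its relative *LPXN* had the smallest, -0.48 ± 0.45 (SE), from 10 to 29 counts.

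Of the 9 tested upstream receptors, *ERBB2* had the largest log2 fold change, 1.05 ± 0.34 (SE, adjusted p = 0.223 in edgeR), from 11 to 32 counts. The integrin subunit gene *ITGB3* had the smallest, -0.48 ± 0.45 (SE), from 4 to 18 counts. *IGF1R* at 0.89 (adjusted p = 0.111 in edgeR) and *ERBB3* at 0.61 (adjusted p = 0.253) were named after their values were seen, since with the replicate block they were enriched in edgeR (adjusted p = 2.3e-07 and 7.39e-06), as was *PXN* (0.00368), which made 4 pathway genes with *SHC1*, or 5.56% beside 3.56% of all tested genes in that fit.

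Another 3 lists had medians closer to 0. The 9 tested Csk partners, phosphatases and ubiquitin ligases had a median of 0.05, between *CBL*, a ubiquitin ligase for active kinases, at 0.41 ± 0.10 (SE) and *PAG1*, the membrane anchor of CSK, at -0.06 ± 0.21. For the 17 downstream relays the median was 0.02, and *KHDRBS1*, an RNA-binding Src substrate, was lowest at -0.13 ± 0.10. The 11 tested Abl partners had a median of 0.14, between *BCR* at 0.45 ± 0.15 and the actin regulator gene *ENAH* at -0.05 ± 0.12. Of 6 other Src and Frk family kinases only *FRK* was tested, with 5 to 23 counts and a log2 fold change of 0.47 ± 0.42 (SE).

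**Figure D4:**
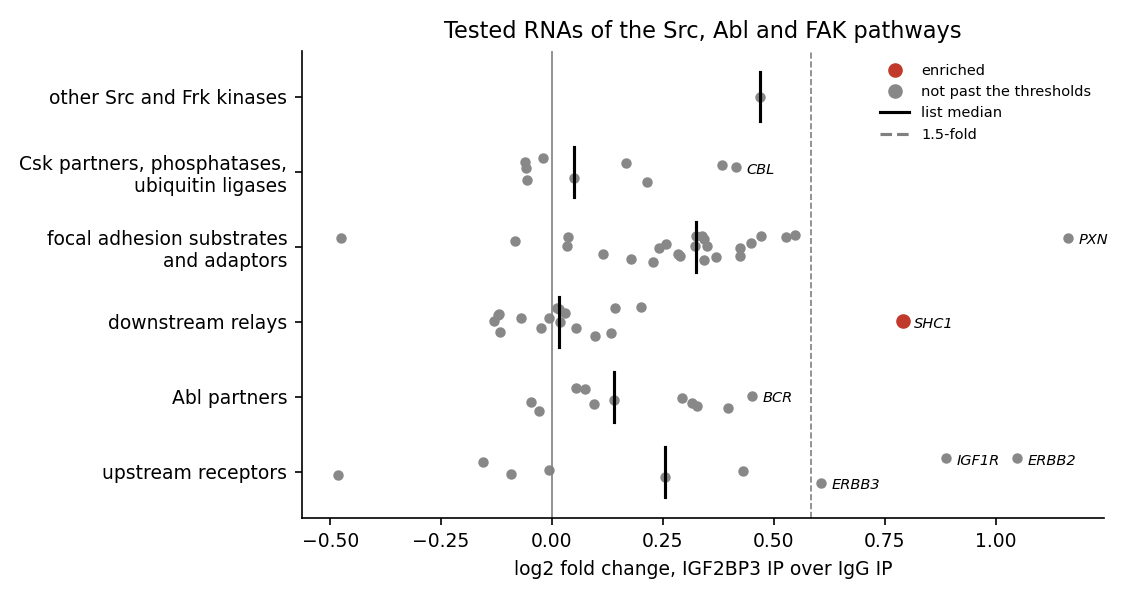
Log2 fold changes (IGF2BP3 IP over IgG IP) of the 72 tested genes of 6 pathway lists, with black lines at list medians and the enriched gene in red. *SHC1* alone is past both thresholds, and *PXN*, *ERBB2*, *IGF1R* and *ERBB3* lie beyond 1.5-fold without passing the test.

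Across 21 other ways of processing the data, the log2 fold change of *SRC* lay between 0.86 and 1.27. *ABL1* ran from 0.42 to 0.88 and *CSK* from 0.35 to 0.69. *YES1* was negative in 19 of them and 0.01 in both fits of TPM values, where the median of all tested genes was shifted upward.

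**Figure D5:**
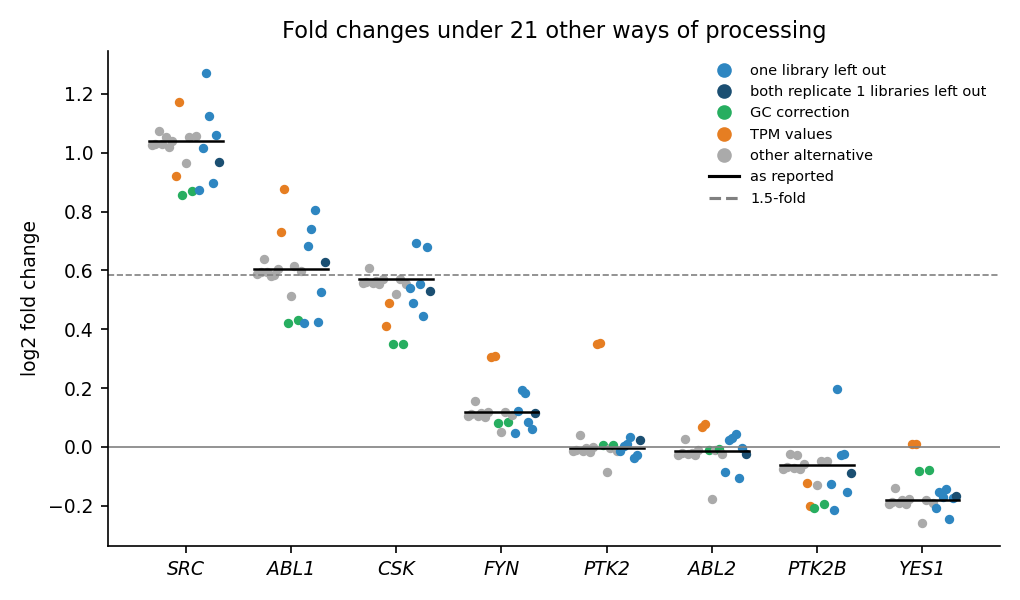
Log2 fold changes of the 8 tested kinases under 21 other ways of processing (points, coloured by kind) and as reported (black lines). *SRC* stays above 1.5-fold throughout, *ABL1* and *CSK* fall on both sides of it, and the other 5 stay under it.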

How the data were processed

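RIP-seq libraries from WaGa cells (3 IgG IP, 3 IGF2BP3 IP) were grouped and numbered from the sample titles. The authors aligned reads to GRCh38 with STAR 2.7.9a, quantified them with RSEM on GENCODE version 37, and deposited whole-number counts per gene and TPM values. The deposited FPKM values were not used. Whether RSEM or another program made the whole-number counts, and whether strand was used, is not given in the sources used here.

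Counts were filtered (filterByExpr), TMM-normalized and tested with a model of condition alone (edgeR 4.0.16, R 4.3.3). Genes were called at 1.5-fold or more and p under 0.05 after Benjamini-Hochberg adjustment. The standard errors given were not read from the fit. They are the absolute log2 fold change divided by the square root of the F statistic of the quasi-likelihood test. DESeq2 1.42.0, the tool the authors compared the groups with, and limma 3.58.1 served as alternatives. GC and length trends were removed per library by loess (span 0.5). Canonical transcripts of GENCODE version 44 were matched for 60481 of 60655 genes.

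The fits were tested on simulated counts drawn with trended and with gene-wise dispersions. The simulated counts held no replicate effect, so they cannot show how the block behaves on these libraries. The share of false calls was above the nominal one in each fit except the replicate block with trended dispersions, and it was higher with gene-wise dispersions, most of all for the replicate block.

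Replicate numbers were checked for pairing: deviations from group means correlated at 0.57, 0.28 and 0.23 for numbers 1, 2 and 3, and between numbers 2 and 3 at 0.28 and 0.27, so numbers 2 and 3 were not told apart. The block was used as an alternative.

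Members and gene lists were chosen with earlier results of these data known. The genes named were all members, pathway genes past the thresholds, and the largest and smallest fold change of each list. Also named were the 5 genes most like *SRC*, genes sharing exons or a name with a member, and some cell type markers. *IGF1R* and *ERBB3* were named outside these rules, after their values were seen.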

Additional observations from a re-analysis of the deposited data

How the results depend on the processing

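As reported, 0 kinases and 1 pathway gene were enriched, among 169 genes in all. With the replicate block they were 2 (*SRC* and *ABL1*) and 4 among 517, with the GC correction and the replicate block together 1 (*SRC*) and 3 among 272, and with DESeq2 and the replicate block 2 and 3 among 321. DESeq2 alone gave 1 and 3 among 281, no filter beyond 1 count gave 1 and 4 among 359, and the length correction gave 1 kinase among 142. Both limma-trend fits of TPM values gave 0 pathway genes and 0 genes in all. Leaving out 1 library gave 0 to 1 kinases and 0 to 2 pathway genes among 0 to 244, where *SRC* was called without IGF2BP3 IP replicate 1. Leaving out both replicate 1 libraries, an alternative chosen after seeing the data, gave 2 kinases (*SRC* and *ABL1*) and 4 pathway genes among 466. RLE and upper-quartile factors, library totals, limma-voom, a minimum of 10 counts and the GC correction alone changed neither count, and a fold minimum of 2 or none left 0 kinases. No alternative gave a lower pathway gene. The cause of these changes was not tested. The sign of *PTK2*, *ABL2*, *PTK2B* and *YES1* turned in 9, 6, 1 and 2 of the 21 alternatives, none of them a called value. Precision was limited by 3 libraries per group and, for *PTK2B*, *PXN*, *LPXN*, *ERBB2*, *ITGB3* and *FRK*, by low counts.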
